A study of Homo sapiens with 24 samples.

Results

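HT29 cells, an established human colorectal adenocarcinoma line, were given vascular endothelial growth factor (VEGF) or platelet-derived growth factor (PDGF), and the RNA of the VEGF cultures is compared here directly with that of the PDGF cultures. The comparison takes in 12 of the 24 arrays of the study, 6 from VEGF and 6 from PDGF cultures. Each factor was used at 100 ng/ml, and cultures were harvested after 24, 48 and 72 h, with 2 replicates at each time. The other 12 arrays came from cultures that received the VEGF vehicle or the PDGF vehicle for the same times; they serve only as a yardstick, since neither side of that comparison received a factor. Each VEGF array was paired with the PDGF array of the same time and replicate number, which gives 6 pairs, and the vehicle arrays were paired in the same way. All arrays of a replicate number were hybridised on the same day, and no vehicle value was subtracted from a treated one. Every group shared the line, the number of cells seeded and a recovery of 24 h before treatment. The labels name neither the isoforms of the factors nor the composition of the vehicles, and they do not say that the replicates were separate cultures. Spread between arrays, whether technical or biological, is thus all that the p-values below reflect.

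VEGF-A binds the receptor tyrosine kinases FLT1 and KDR, with the neuropilins as co-receptors, and is best known as a signal to endothelial cells. PDGF dimers bind PDGFRA and PDGFRB and are best known as signals to fibroblasts, pericytes and smooth muscle. Both kinds of receptor feed the RAS-ERK and PI3K-AKT pathways, whose transcriptional output includes a brief wave of immediate-early genes such as FOS and EGR1. Colorectal cancer cells make ligands of both families, and the receptors are found mostly on the stromal and vascular cells around them.

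Expression was measured on the log2 scale for 49293 probe sets, of which 44988 were annotated with a single gene and 18132 distinct genes were covered. Array medians lay between 7.05 and 7.13. The mean of 39368 probe sets (79.9%) over all 24 arrays lay above 6.45. That level was passed by 5% of spike-in control probe sets and is called the dim level below. By their means over the 12 treated arrays, all 11 markers of colon epithelium on the list used here were above it. So were 5 of 8 fibroblast, 7 of 8 endothelial and 4 of 5 leukocyte markers. Since most probe sets of the array lay above that level, it does not show that the markers of other cell types were expressed. No marker of these 4 lists passed the test between VEGF and PDGF cultures, and the list medians of each pair stayed between -0.10 and 0.10. Of the 11 colon epithelium markers, 10 averaged lower in VEGF, with a list median of -0.03, and 8 were lower in both 24 h pairs, where 21.5% of all genes were. With quantile normalisation added, that list median was -0.01. The medians of the 24 h pairs then stayed negative, at -0.04 and -0.03, and those of 72 h changed from -0.06 and -0.02 to 0.02 and 0.01. LGALS4, a galectin of the intestinal epithelium, was the marker lower in all 6 pairs, by 0.03 to 0.16, an average of -0.08 (-0.16 to -0.01). As in any bulk RNA measurement, fewer cells that express a gene and less of its RNA per cell cannot be told apart.

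No probe set passed the test between VEGF and PDGF cultures when the 6 pairs were averaged. In limma's paired fit, 0 of 49293 probe sets (0.0%) had a Benjamini-Hochberg adjusted p under 0.05, and 1675 (3.4%) had an unadjusted p under that value, with 1079 higher in VEGF and 596 higher in PDGF. The lowest adjusted p, 0.12, belonged to a probe set of CHD4, the ATPase of the NuRD chromatin remodelling complex. The averaged differences ran from 0.23 down to -0.38, so no probe set reached a 1.5-fold difference. The 95% interval of a probe set extended a median of 0.08 log2 units to either side, and the interval lay within 1.25-fold in both directions for 99.97% of probe sets. These intervals use limma's variance, which draws that of each probe set towards a value common to all. For probe sets whose pairs vary widely, they are narrower than the pairs alone would give. The 99.97% is thus not a share of probe sets shown to be equal. In data simulated from these arrays with 50 probe sets changed at each size, this fit recovered 90% of those changed 1.25-fold and 100% of those changed 1.5-fold. It also called 7 unchanged probe sets. The simulated noise was drawn separately for each probe set, so recovery may differ where probe sets vary together. The same fit on the vehicle pairs also called 0 probe sets (0.0%), with 1375 (2.79%) under an unadjusted p of 0.05. The test of whether the VEGF to PDGF difference departed from the difference of the vehicles called 0 (0.0%), with 1144 (2.32%) under the unadjusted threshold.

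The size of the difference within each pair was on average not larger between the factors than between the vehicles. The SD of VEGF minus PDGF, taken across probe sets, was 0.10, 0.11, 0.11, 0.10, 0.09 and 0.11 log2 units in the 6 pairs, taken as replicates 1 and 2 at 24 h, then at 48 h, then at 72 h. That of the vehicles was 0.12, 0.11, 0.09, 0.09, 0.13 and 0.14. The treated SD was the larger in the 2 pairs of 48 h and the smaller in the other 4, a mean difference of -0.01 (exact 2-sided sign-flip test over 6 pairs, p = 0.344, adjusted p = 0.375 over the 3 single values tested, where the smallest possible p is 0.0313). Leaving out 1 pair gave values between -0.0156, without the 48 h pair of replicate 1, and -0.00389, without the 72 h pair of replicate 1, with -0.0046 without that of replicate 2. The number of probe sets more than 1.5-fold apart was 3 (0.00609%), 0 (0.0%), 35 (0.071%), 21 (0.0426%), 2 (0.00406%) and 5 (0.0101%) in the treated pairs. In the vehicle pairs it was 14 (0.0284%), 25 (0.0507%), 1 (0.00203%), 10 (0.0203%), 95 (0.193%) and 247 (0.501%). For comparison, the 2 replicates of a single group differed with an SD between 0.16 and 0.22. The array most like each of the 12 treated arrays always shared its time and its replicate number; it was the paired array of the other factor for 5 and a vehicle array for 7.

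**Figure D1:**
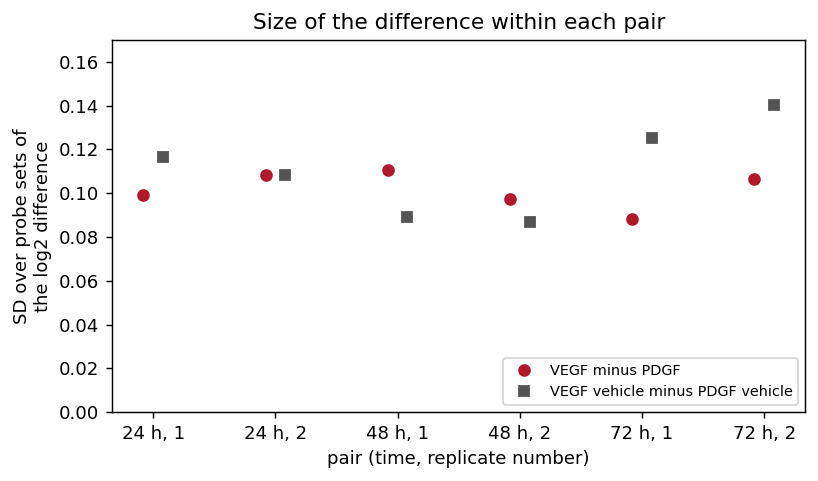
Spread of the pair differences, as the SD over 49293 probe sets in log2 units, for VEGF minus PDGF and for VEGF vehicle minus PDGF vehicle at each time and replicate. The treated values lie between 0.09 and 0.11, within the range of 0.09 to 0.14 of the vehicle values.

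The direction of the differences was not shared between pairs. Over all probe sets, the correlation of VEGF minus PDGF between any 2 of the 6 pairs ran from -0.19 to 0.28 with a median of -0.05, and between the 2 replicates of a time it was -0.18, -0.19 and -0.03 at the 3 times. These correlations are across probe sets, which are not independent, and the points share the normalisation of the whole data set. VEGF was higher in all 6 pairs for 721 probe sets (1.46%) and lower in all 6 for 483 (0.98%), against 462 (0.937%) and 509 (1.03%) for the vehicles. Only 39 probe sets (0.0791%) had 6 VEGF values that did not overlap with the 6 PDGF values. Taken with 1 probe set for each gene, 276 of 18132 genes (1.52%) were higher and 162 (0.893%) were lower in every pair.

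The receptors of both factors gave near-equal signals in the 2 kinds of culture. KDR, the main signalling receptor of VEGF-A, lay between 6.65 and 7.05 (median 6.84) in the VEGF arrays and between 6.77 and 6.92 (median 6.85) in the PDGF arrays. The ranges overlap, and the pairs differed by -0.13, 0.03, 0.04, 0.12, 0.28 and -0.23, with no common sign. The averaged difference of KDR was 0.02 with a 95% interval of -0.08 to 0.12 from limma, narrower than these 6 pairs alone would give. Both KDR medians lay below the array medians of 7.05 to 7.13 and close to the dim level of 6.45. Near-equal signals at that level do not show equal receptor expression. FLT1, the other VEGF-A receptor, was not above the dim level, at 6.36 to 6.47 in VEGF and 6.39 to 6.47 in PDGF cultures. FLT4, the receptor of VEGF-C, differed by 0.04 (-0.05 to 0.12) and the co-receptors NRP1 and NRP2 by 0.04 (-0.06 to 0.13) and 0.03 (-0.05 to 0.10).

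Among the PDGF receptors, PDGFRB lay between 6.85 and 6.93 (median 6.90) in the VEGF arrays and between 6.75 and 6.98 (median 6.84) in the PDGF arrays. VEGF was higher in 5 of its 6 pairs, by 0.07 to 0.10, and lower by 0.11 in replicate 2 at 48 h. Its averaged difference of 0.05 had an interval of -0.03 to 0.13, and the vehicle pairs of the same probe set differed by 0.07 on average. PDGFRA differed by 0.03 (-0.04 to 0.11). PDGFRL, a PDGF receptor-like protein without a kinase, differed by 0.04 (-0.04 to 0.13). All 3 signals lay close to the dim level of 6.45, and neither the receptors of the added factor nor those of the other factor passed the test (0 of 8 called, against 0.0% of all probe sets).

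VEGFA, the ligand gene itself, had the largest averaged difference of the ligands. Its signal ran from 9.71 to 11.29 (median 10.50) in the VEGF arrays and from 9.86 to 11.12 (median 10.76) in the PDGF arrays. The pairs differed by 0.05, -0.15, 0.36, -0.58, -0.10 and -0.02, so the largest differences, both at 48 h, had opposite signs. The average was -0.07 with an interval of -0.21 to 0.07, and the 9 other probe sets of VEGFA averaged -0.08 to 0.03. The remaining ligands spanned -0.03 to 0.04. VEGFB differed by 0.03 and the placental growth factor PGF by 0.04, while VEGFC was not above the dim level. PDGFA differed by -0.03, PDGFB by 0.01 and PDGFC by 0.02, and PDGFD was not above the dim level. None of the 8 ligands passed the test, and every interval of the 16 ligands and receptors ended within 0.22 log2 units of 0.

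**Figure D2:**
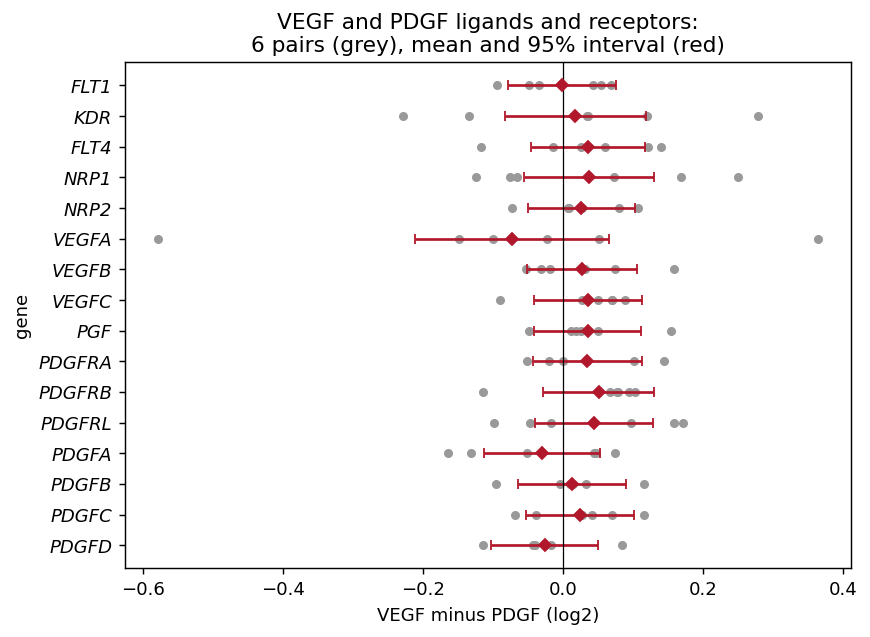
VEGF minus PDGF in log2 units for the 16 ligand and receptor genes, with a point for each of the 6 pairs and the averaged difference with its 95% interval from limma. All averages lie between -0.07 for VEGFA and 0.05 for PDGFRB, and every interval includes 0. The intervals use limma's variance, drawn towards a value common to all probe sets, and can be narrower than the points alone would give.

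To show the genes with the most repeatable differences, the 12 highest and the 12 lowest averages were taken among annotated probe sets above the dim level whose sign was the same in all 6 pairs. Such probe sets numbered 848 of 49293, with 567 higher in VEGF and 281 lower. The choice used the values that follow, which are therefore a description. None of the 24 passed the test over all probe sets, and for 15 of them the probe set shown is not the gene's brightest.

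On the side higher in VEGF, the averages ran from 0.19 down to 0.13. IPO7, a receptor that carries proteins into the nucleus, lay between 7.90 and 8.45 in the VEGF arrays and between 7.78 and 8.38 in the PDGF arrays. Its pairs differed by 0.25, 0.07, 0.20, 0.28, 0.12 and 0.23 and averaged 0.19 (SE 0.038, adjusted p = 0.63), with VEGF higher throughout. The vehicle pairs of IPO7 differed by -0.23 to 0.35, a wider range. The 3 other probe sets of IPO7 averaged -0.03 to 0.04, so the difference was seen by 1 of 4. ASXL1, a regulator of Polycomb chromatin marks, averaged 0.18 with pair differences from 0.00 to 0.30, and its 6 other probe sets averaged -0.04 to 0.06.

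The others on that side averaged 0.13 to 0.16. The cadherin CDH22 differed by 0.03 to 0.33 and averaged 0.16, with both other probe sets at 0.02 and 0.09. COL4A6, a collagen IV chain of basement membranes, differed by 0.04 to 0.30 and averaged 0.16, with 3 of 6 other probe sets on the same side. LAIR1, a collagen receptor known from leukocytes, averaged 0.14 and all 3 of its other probe sets were positive, at 0.01 to 0.03. HES2, a transcriptional repressor of the HES family, had the most even pairs, at 0.11 to 0.17. The VEGF arrays of HES2 lay between 7.04 and 7.21 and the PDGF arrays between 6.93 and 7.07, so the groups overlapped only at the edge. The remaining 6 were TRIM46 (a microtubule organiser), LMF1 (a maturation factor of lipases), BNIPL, PIGQ (an enzyme of GPI anchor synthesis), ZNF394 and FOXI3 (a forkhead factor), at 0.13 to 0.14. Apart from IPO7, the medians of these 12 signals in the VEGF arrays lay between 6.55 and 7.39, not far above the dim level.

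On the side lower in VEGF, CHD4 had the lowest average. Its probe set lay between 9.20 and 9.65 (median 9.28) in the VEGF arrays and between 9.36 and 9.94 (median 9.55) in the PDGF arrays. The pairs differed by -0.16, -0.30, -0.20, -0.24, -0.16 and -0.35, an average of -0.23 (SE 0.038, adjusted p = 0.12), a sign held by every pair. The 2 other probe sets of CHD4 averaged 0.00 and 0.05, so the gene's probe sets disagree. In the vehicles the same CHD4 probe set differed by -0.74 to 0.39, again a wider range than between the factors.

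IQGAP2, a scaffold protein of the cytoskeleton, and ASS1, the enzyme that makes argininosuccinate on the way to arginine, belonged with ONECUT2 to the members whose other probe sets all had the same sign. IQGAP2 differed by -0.03, -0.26, -0.21, -0.26, -0.09 and -0.08, an average of -0.16, and its 3 other probe sets averaged -0.13 to -0.06. The IQGAP2 signal lay between 7.47 and 8.15 in the VEGF arrays and between 7.55 and 8.23 in the PDGF arrays. ASS1 differed by -0.16, -0.04, -0.29, -0.07, -0.27 and -0.08, an average of -0.15, and its other probe set averaged -0.16. Over both kinds of culture the ASS1 level was 8.18 to 8.64 at 24 h and 10.05 to 10.31 at 72 h, a gap wider than any of its pair differences. ONECUT2, a transcription factor, averaged -0.14 (-0.27 to -0.04 over the pairs) with its other probe set at -0.11. The vehicle pairs of ONECUT2 were also lower, by 0.20 on average, and in 5 of 6 pairs.

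EGR1, an immediate-early zinc finger factor, was in this group through a probe set that averaged -0.16, with the other 5 at -0.24 to 0.05; it is taken up with its gene class below. The remaining 7 averaged -0.15 to -0.12. They were CCDC50, TCEA3 (a transcription elongation factor), MAML2 (a Notch co-activator), LRP5L, INPP4A (an inositol polyphosphate phosphatase), CEP152 (a protein of centriole duplication) and SCRN2. CCDC50 was also lower between the vehicles, by 0.15 on average and in 5 of 6 pairs. The probe sets of MAML2 disagreed in sign, at -0.13 and 0.06.

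**Figure D3:**
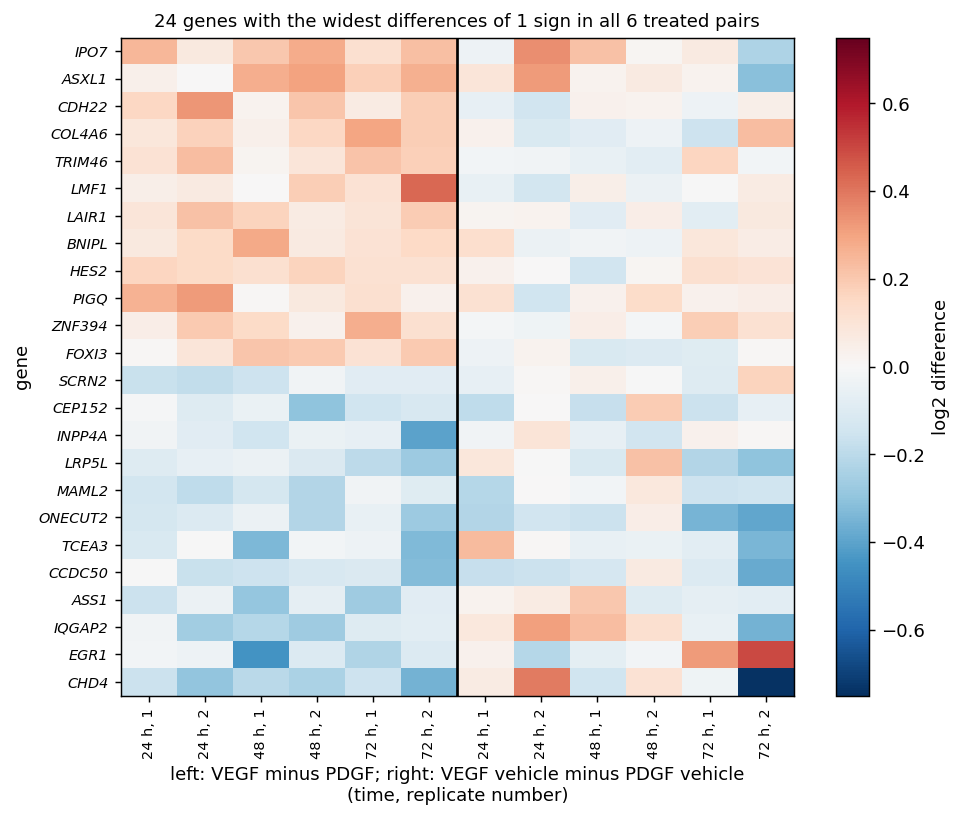
VEGF minus PDGF in log2 units, as colour, for the 24 genes with the highest and lowest averages among those of constant sign, in each of the 6 pairs, beside VEGF vehicle minus PDGF vehicle in the same pairs. The treated side has 1 colour per gene by construction, while on the vehicle side most genes change sign between pairs.

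The immediate-early genes, which growth factor signalling switches on within minutes, included the largest fitted differences between the factors at 48 h. Of 18 listed genes 17 were measured, all above the dim level, and 0 passed the test at any time (0.0% of all probe sets). The list median was 0.06, -0.04, -0.16, -0.17, 0.02 and 0.02 over the 6 pairs, against medians of all genes from -0.01 to 0.02. At 48 h, 8 of 17 were lower in both pairs and 0 were higher in both, where all genes gave 21.7% and 23.1%. The list median stayed negative in both 48 h pairs with arrays centred on their median (-0.15 and -0.18) and with quantile normalisation (-0.16 and -0.16). At 24 h 5 were higher and 3 lower in both pairs (20.7% and 21.5% of all genes), and at 72 h 7 were higher and 5 lower (27.5% and 19.6%), and some of these medians changed sign with the scaling. Between the vehicles, 0 were higher and 11 lower in both pairs at 24 h (18.0% and 30.2% of all genes), 3 and 2 at 48 h (19.5% and 19.2%), and 13 and 0 at 72 h (29.6% and 23.1%).

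CCN2, a secreted matricellular protein and a target of SRF and YAP, had the lowest averaged difference at 48 h. In replicate 1 it stood at 9.26 in VEGF and 10.09 in PDGF cultures, and in replicate 2 at 8.23 and 8.78. The 48 h difference was -0.69 (SE 0.25, adjusted p = 1.00 in limma), and the vehicles of the same time differed by 0.01 and 0.21. The 48 h fit adjusted for replicate number and not for the pair, so a gap between replicates that changed with time enters its SE and p. At 24 h the CCN2 pairs disagreed, at 0.32 and -0.37, and at 72 h they were 0.08 and -0.01. FOS, a subunit of AP-1, stood at 11.39 in VEGF and 11.98 in PDGF cultures in replicate 1 at 48 h, and the difference was -0.59 there and -0.45 in replicate 2. Its 3 other probe sets were lower in both 48 h pairs as well, by 0.15 to 0.88. JUN, the partner of FOS in AP-1, differed by -0.24 and -0.27, and IER2, another early gene, by -0.31 and -0.13. Over the 4 probe sets more than 1.5-fold apart in the 48 h fit, of CCN2, FOS and EGR1, the adjusted p was 1.00.

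EGR1 shows how these genes varied between replicates. Its brightest probe set gave 11.54, 8.26, 11.15, 9.52, 11.18 and 9.29 in the VEGF arrays and 11.36, 8.29, 11.72, 9.89, 11.18 and 9.13 in the PDGF arrays, in the order of the pairs. Replicate 1 was above replicate 2 at every time in both kinds of culture, by more than the factors differed. The pair differences were 0.18, -0.03, -0.57, -0.37, 0.00 and 0.17, and the averaged difference was -0.10 with an interval of -0.24 to 0.03. The limma interval is again narrower than these pairs alone would give. All 6 probe sets of EGR1 were lower in VEGF in both pairs at 48 h. Between the vehicles at 72 h this EGR1 probe set differed by 0.71 and 2.01, with the VEGF vehicle the higher, and FOS by 0.79 and 1.73. These vehicle differences were larger than any between the factors in the same probe sets, and they did not pass the test either (adjusted p = 0.81 and 0.77 in limma). That fit also adjusted for replicate number and not for the pair.

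The promoter of EGR1 is shown because the gene was the only immediate-early gene among the 24 above and because its control by serum response factor is well described. The 120 bases before its start in RefSeq (GRCh38.p14, chr5:138465359-138465478, plus strand) hold 2 CArG boxes, the binding motif of that factor, given in capitals, whose first bases lie 105 and 83 bases before the start.
EGR1 promoter: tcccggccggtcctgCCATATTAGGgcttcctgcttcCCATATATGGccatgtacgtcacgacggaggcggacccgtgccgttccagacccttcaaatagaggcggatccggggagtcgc
A CArG box occurred in 351 of 27305 RefSeq promoter windows (1.29%) that run from 250 bases before to 50 bases after a start. Of 12 immediate-early genes on the list with such a window, EGR1 and SRF held a box, while FOS, JUN, IER2 and CCN2 were among those that held none there. The motif is the same on both strands, and its presence describes the sequence and says nothing of binding in these cells.

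**Figure D4:**
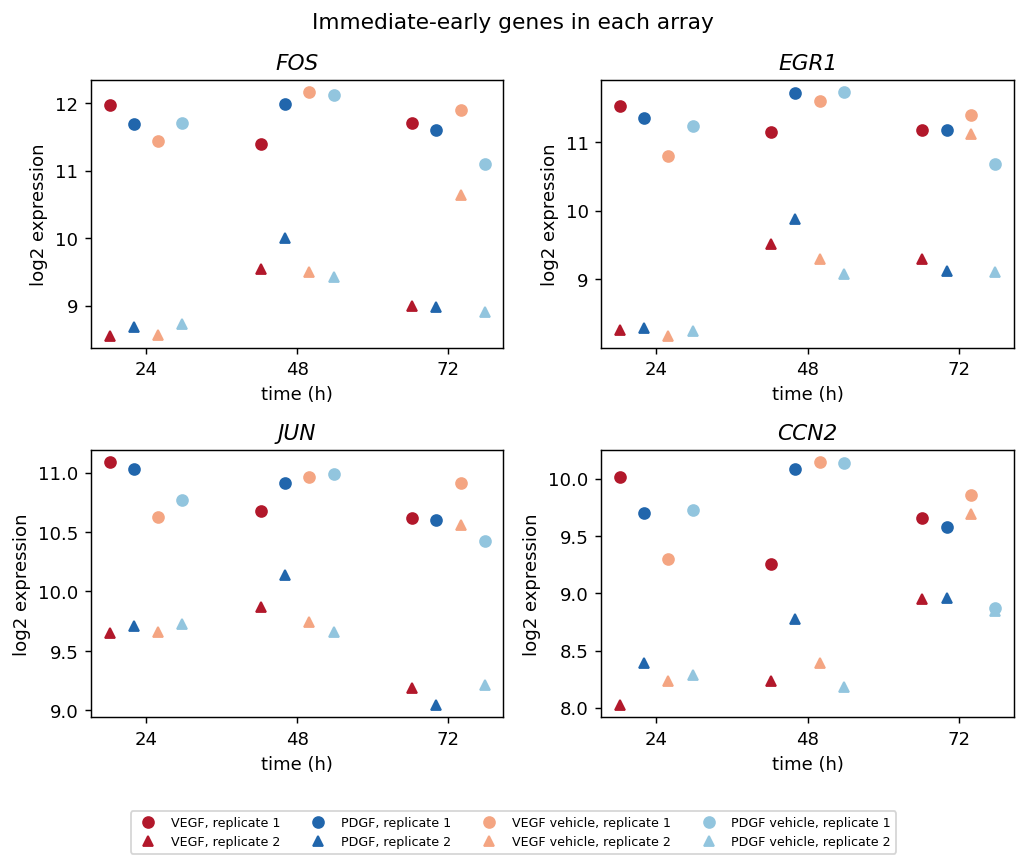
Log2 expression of FOS, EGR1, JUN and CCN2 in the VEGF, PDGF and vehicle cultures at 24, 48 and 72 h, with the 2 replicates drawn separately. All 4 are lower in VEGF than in PDGF cultures at 48 h in both replicates, and the VEGF vehicle stands above the PDGF vehicle at 72 h.

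Genes that mark the output of the ERK and PI3K pathways gave no call. Of 12 ERK feedback genes, among them the phosphatase DUSP6 and the inhibitor SPRY2, 0 passed the test and the list median averaged -0.02. SPRY2 was lower in 5 of 6 pairs, at -0.27 to -0.08, and higher by 0.14 in replicate 1 at 24 h, an average of -0.10 (-0.19 to -0.01). That interval uses limma's shared variance and is narrower than these 6 pairs alone would give, so its exclusion of 0 is no sign of a steady difference. DUSP6 ranged from -0.20 to 0.25 and averaged 0.02. Of 10 PI3K and FOXO target genes 0 passed, with averages from -0.09 for TXNIP, an inhibitor of thioredoxin, to 0.06 for the cell cycle inhibitor CDKN1B. Of 8 JAK-STAT targets 0 passed. SOCS2, a feedback inhibitor of cytokine receptors, was lower in all 6 pairs, by 0.05 to 0.23, but its signal of 6.28 to 6.36 in the VEGF arrays was below the dim level.

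The unfolded protein and amino acid response genes differed in opposite directions in the 2 replicates at 48 h. All 10 were measured, and the list median over the pairs was -0.03, -0.10, 0.15, -0.24, -0.12 and -0.03. DDIT3, a factor induced by endoplasmic reticulum stress, differed by 0.51 in replicate 1 and -0.50 in replicate 2 at 48 h. TRIB3, a pseudokinase target of ATF4, differed by 0.49 and -0.49, and SESN2, an inhibitor of mTORC1 signalling, by 0.48 and -0.69. Outside 48 h the differences of these 3 genes lay between -0.28 and 0.01, and on average over all pairs they were -0.04, -0.11 and -0.11. Averages were negative for 9 of the 10 genes and 0 passed the test.

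Cholesterol synthesis genes stood apart in a single pair. Their median was -0.39 in replicate 1 at 48 h and between -0.03 and 0.14 in the other 5 pairs, over the 7 genes measured of 10 listed. INSIG1, the sterol sensor that retains SREBP, differed by -0.65 there, HMGCS1, an early enzyme of the pathway, by -0.44 and IDI1, an isomerase of isoprenoid synthesis, by -0.45. In replicate 2 at 48 h the same genes differed by 0.15, -0.16 and 0.03. The replication genes MCM4 and CCNE2 were lower in VEGF in the same pair, at -0.51 and -0.45, with 0.04 in replicate 2 for both.

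Cell cycle, differentiation and hypoxia genes gave averages near 0. Of 14 genes of the G1/S transition and 12 mitotic genes 0 passed the test, and the list medians were -0.02 and -0.03. PLK1, a mitotic kinase, was the member of these lists higher in all 6 pairs, by 0.01 to 0.22, an average of 0.08. Its 2 other probe sets averaged -0.03 and 0.03. The Wnt targets, which report on the pathway active in most colorectal cancers, averaged a median of 0.01, with AXIN2 at 0.02 and LGR5 at 0.02. Enterocyte genes had a median of 0.00 and goblet and secretory genes one of -0.01, with CHGA, an enteroendocrine granule protein, higher in all 6 pairs by 0.01 to 0.17. Glycolysis genes had a median of -0.01. At 24 h 8 of 11 of them were lower in both pairs, where 21.5% of all genes were, but their median over the 24 h pairs stood at -0.03 and -0.08. The hypoxia genes had a median of 0.01.

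Of genes tied to stroma and vessels, the epithelial-mesenchymal list had a median of 0.03 and the angiogenesis ligands and chemokines one of 0.00. CDH1, the epithelial cadherin, differed by 0.00 on average, VIM by 0.06 and CXCL8, a chemokine, by -0.03. MMP2, a gelatinase, was higher in all 6 pairs, by 0.03 to 0.13, with its other 3 probe sets between -0.05 and 0.07. The ERBB ligands had a median of -0.01 over the 5 measured. Of 9 interferon response genes 0 passed, with IFI27 at -0.16 and a single probe set besides at -0.08. Over all the lists, 0 genes were called by limma. With the marker lists counted, the genes of constant sign in all 6 pairs were PLK1, CHGA and MMP2 on the higher side and SOCS2 and LGALS4 on the lower, where all genes gave 1.52% higher and 0.893% lower.

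**Figure D5:**
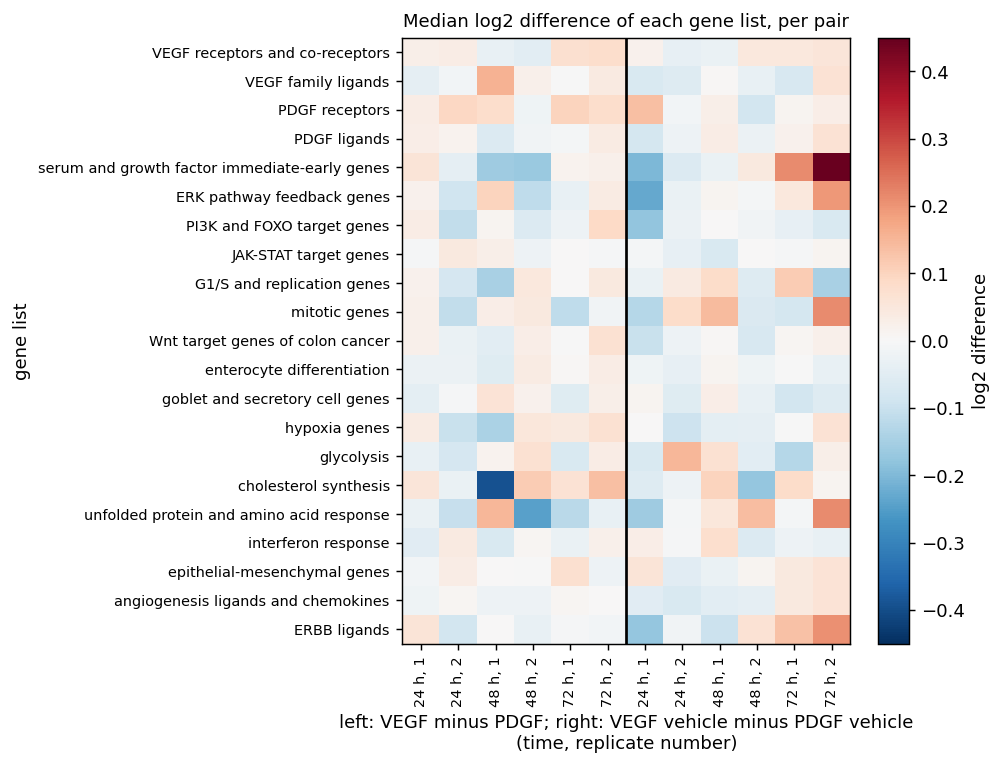
Median VEGF minus PDGF difference of each gene list, in log2 units as colour, in each of the 6 pairs, beside the vehicle pairs. Most treated cells are near 0; the cholesterol list reaches -0.39 in replicate 1 at 48 h, and the immediate-early list reaches 0.44 between the vehicles in replicate 2 at 72 h.

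Taken time by time, with 2 arrays of each factor, the factors again gave no call. These fits adjusted for replicate number and not for the pair. A gap between replicates that changed with time thus counted as spread. limma called 0 probe sets (0.0%) at each of the 3 times, and 584 (1.18%), 527 (1.07%) and 680 (1.38%) had an unadjusted p under 0.05. Between the vehicles the counts were also 0 (0.0%), with 1208 (2.45%), 165 (0.335%) and 2886 (5.85%) under the unadjusted threshold. No probe set was more than 1.5-fold apart in the same direction in both pairs of a time between the factors, against 14 (0.0284%) between the vehicles at 72 h. The change of the difference from 24 to 72 h called 0 probe sets (0.0%), with 414 (0.84%) under the unadjusted threshold. These fits were less able to see small changes: in simulated data the 24 h fit recovered 2% of changes of 1.25-fold, 54% of 1.5-fold and 96% of 2-fold. At 72 h the lowest difference was that of a probe set of SON, a nuclear speckle protein, at -0.66 (SE 0.13, adjusted p = 1.00).

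Of the 35 probe sets more than 1.5-fold apart in replicate 1 at 48 h, 25 had the opposite sign in replicate 2, and of the 21 so far apart in replicate 2, 17 had the opposite sign in replicate 1; over the whole array the signs were opposite for 54.4%. Genes with such reversals, named after their values were seen, included GDF15, a stress-induced cytokine, and EREG, an ERBB ligand. GDF15 differed by 0.60 and -0.65 in a probe set past the threshold in both replicates, and EREG by 0.59 and -0.76. The 3 other probe sets of EREG differed by 0.18 and -0.34, 0.72 and -0.24, and 0.67 and 0.17, so the last did not reverse. CCN2, FOS and EGR1 were among those of the same sign.

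The averaged result depended on that pair. Without the 48 h pair of replicate 1, limma called 28 of 49293 probe sets, 4 higher and 24 lower in VEGF. Of these 28, 26 had the opposite sign in the pair left out, against 57.7% of all probe sets. Since 0 were called with that pair included, the calls without it favour probe sets that it opposes. The 28 included SRRM2, a splicing factor of nuclear speckles, and MALAT1, a nuclear long non-coding RNA. A probe set of XIST ranked first, at -0.34 over the 5 pairs and 0.51 in the pair left out. SRRM2 averaged -0.26 over the 5 pairs and was 0.44 in the pair left out. MALAT1 averaged -0.33 and was 0.32 there, and TRA2A, a splicing regulator, averaged -0.24 and was 0.75. CHD4 and SON, at -0.20 and -0.39, were the only ones that kept their sign there. Of the 24 lower probe sets, 23 were also lower in the VEGF vehicle on average, where 48.3% of all probe sets were. Their median between the vehicles was 0.26 in replicate 2 at 48 h and ran from -0.45 to -0.02 in the other pairs. Without the 24 h pair of replicate 1, the SON probe set was called alone, at -0.47 (adjusted p = 0.022); over all 6 pairs it averaged -0.38 (SE 0.071, adjusted p = 0.40), and the 2 other probe sets of SON averaged -0.06 and -0.01. In replicate 2 alone 82 of 49293 probe sets were called, 7 higher and 75 lower. Of these 82, 64 had the opposite sign in replicate 1, as did 50.6% over the whole array. Here too 0 were called with all pairs included, so the calls favour probe sets that replicate 1 opposes. That fit rests on 1 pair at each time. In that set 72 of the 75 lower ones were also lower in the vehicle average, but not in every vehicle pair. Their medians between the vehicles at 24, 48 and 72 h were -0.22, -0.21 and -0.29 in replicate 1. In replicate 2 they were -0.01, 0.22 and -0.42. Of the 82, 65 list a single gene and cover 57 genes, so the probe sets are not independent. The genes named here were chosen after their values were seen.

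Culture progress did not pass a test between the factors, and the test of RNA quality had no possible p under 0.05. The position of each array along the change of the vehicles from 24 to 72 h, where 0 and 1 stand for the vehicle means of these times, was 0.02, -0.06, 0.79, 0.25, 1.05 and 0.93 in the VEGF arrays. In the PDGF arrays it was 0.09, 0.00, 0.78, 0.37, 1.05 and 0.92. The mean difference was -0.04, with VEGF lower in 4 of 6 pairs (exact 2-sided sign-flip test, p = 0.188, adjusted p = 0.375). It was -0.02 without the 48 h pair of replicate 2, and also -0.02, with VEGF lower in 5 of 6 pairs, when the axis came from the vehicles of both replicate numbers. At 48 h replicate 1 stood well ahead of replicate 2 with either factor. The RNA integrity number, a score of RNA quality given in the labels, was 8.8, 9.0, 9.4, 9.5, 9.7 and 9.6 for VEGF and 9.4, 9.0, 9.8, 9.5, 9.8 and 9.4 for PDGF. The mean difference of -0.15 came from 3 pairs with a lower and 1 with a higher number in VEGF (exact 2-sided sign-flip test, p = 0.375, adjusted p = 0.375). It was -0.06 without the 24 h pair of replicate 1. Because the numbers were equal in replicate 2 at 24 and 48 h, sign flips could not give a p under 0.05. The test thus cannot show that RNA quality was alike. The integrity number was lower in VEGF by 0.4 in replicate 1 at 48 h and equal in replicate 2, and its part in the differences of that time was not tested beyond the fit that includes it, which called 0 probe sets (0.0%).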

How the data were processed

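RNA (100 ng per sample) was amplified and labelled with the IVT Express kit and put on 1 Affymetrix array per sample, per the labels' protocols. The authors deposited log2 expression values per probe set; the submitters' processing notes name RMA and R 3.0.1. RMA normalises quantiles between arrays, so shifts of a whole array cannot be seen; which probe set definitions they used is not stated in the sources used here. The 2 deposited tables hold 49495 and 49395 entries, identical where shared.

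After 102 manufacturer and 100 ERCC controls were set aside, 49293 probe sets were tested without a filter, including 130 whose values equal another's. Genes came from the platform annotation: 44988 probe sets list 1 gene, 1832 several and 2473 none; only the first were named, and a probe set may still match related transcripts. Of those named, 44961 matched the RefSeq gene table, with no symbol changed. Each listed gene was taken at its brightest probe set, and each of the 24 named genes at its brightest probe set that met the rule below. Some listed genes were not analysed here, and each list is described over its measured genes.

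limma 3.58.1 in R 4.3.3 was fitted with lmFit and eBayes, 2-sided, Benjamini-Hochberg adjusted over all probe sets at 0.05. The averaged fits had pair as a block (5 residual degrees of freedom), the test against the vehicles used all 24 arrays (15), and the fits by time had 6 group means and replicate number (5). The replicate numbers pair the samples, since the labels give each a shared hybridisation day, and same-numbered deviations from the group means correlated in all 15 pairs of groups (0.33 to 0.68). Single values were tested by exact sign flips over pairs. Genes were named as the 12 highest and 12 lowest averages of constant sign above the dim level, plus every measured ligand and receptor. The method was tested on simulated data. Other settings were no block, all arrays, dim probe sets left out, centring, quantile normalisation, the smaller table, trended and robust variances, array weights, RNA integrity as a covariate and each pair or array left out. The members and gene lists were chosen with earlier results of these data known.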

Additional observations from a re-analysis of the deposited data

Results flagged for a closer look

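Outlying pairs were sought among 69 series of 6 pair differences. The series were the 24 named genes, the 16 ligands and receptors and the 25 gene and marker lists. The SD, the median, the integrity number and the time course position of each pair made up the rest. In 4 series a pair's gap to its nearest neighbour exceeded 0.625 of the whole range, Dixon's 95% limit for 6 values. That limit holds for series drawn independently. The 24 named genes were chosen by these differences, and some genes also count in a list, so the share flagged says nothing of chance. INPP4A stood at -0.40 in replicate 2 at 72 h against -0.15 to -0.02 in the other pairs. PDGFRB stood at -0.11 in replicate 2 at 48 h against 0.07 to 0.10. VEGFC, a dim probe set, stood at -0.0904 in replicate 1 at 24 h against 0.03 to 0.09. The median of the cholesterol synthesis genes was -0.39 in replicate 1 at 48 h against -0.03 to 0.14.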

How the results depend on the processing

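Of 227 alternative counts of called probe sets, 216 were 0. In the averaged comparisons a pair left out was entered once for each of its 2 arrays, so some of the 227 repeat the same fit. Leaving out an array, pair or replicate gave 0 to 82 calls for the averaged comparison of the factors, 0 to 7 for that of the vehicles, 0 to 3 for the factors at 48 h and 0 to 16 for the vehicles at 72 h. Without the VEGF array of replicate 2 at 48 h, the 3 were probe sets of HNRNPM, ETV5 and ND1, all higher in VEGF, and the fit then rests on a single VEGF array at that time, assumed to vary like the others. Without the 48 h vehicle pair of replicate 2, the 1 call of the averaged vehicles was a MALAT1 probe set, and replicate 1 alone gave 7, all lower. Without the VEGF vehicle array of replicate 1 at 72 h, 16 were called, with JUN, FOS and EGR1 higher. With trended and robust variances 1 probe set was called between the vehicles at 72 h, which lists no gene. Without the replicate block, the pairing removed, the averaged comparison called 0 probe sets, with 503 under an unadjusted p of 0.05, and every other comparison called 0 as well. The ligands and receptors kept their sign in 338 of 365 alternative values, which hold the same repeats. The 24 named genes were chosen for a constant sign, so theirs says nothing of stability. With 2 arrays per group and time, and fits by time that adjust for replicate number and not for the pair, 1.25-fold changes at a single time were mostly out of reach.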
